A study of Mus musculus with 6 samples.

Results

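Mitosis and spindle genes encode the proteins that condense and segregate chromosomes and split a dividing cell, and their transcripts were examined as a group in embryonic mouse kidneys that lacked 1 or both of the Wnt receptors Fz4 and Fz8. The list held 43 genes. A gene was represented by the probe set annotated to it alone with the highest mean log2 value over the 6 arrays, and 42 of the 43 had such a probe set, out of 18193 genes in all. Ccnb1, the main B-type cyclin of mitotic entry, had none in the annotation used and was not analysed here. RNA came from whole kidneys dissected at E13.5 and was hybridised to Affymetrix MOE430.2 arrays. Each array was made from 100 ng of total RNA. The control group was Fz4+/+Fz8-/- (called Fz8-null; arrays C1, C2 and C3), and the other was Fz4-/-Fz8-/- (called double-null; arrays M1, M2 and M3). Both groups therefore lack Fz8, and the comparison asks what the additional loss of Fz4 goes with. There was no wild-type group. The embryos of both groups came from mixed stock in which 129S1/Sv, 129X1/SvJ and C57BL/6 were crossed. The labels call the 3 samples of a genotype biological replicates, but whether an array held the kidneys of 1 embryo or of several is not given in the sources used here. The values are log2 signals, so a difference of 1 is 2-fold. A difference is always double-null minus Fz8-null.

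Most of these genes belong to the late cell cycle programme: they are kept silent in resting cells and are transcribed together as a cell moves from G2 into mitosis. Their promoters are known for a short element, the cell cycle genes homology region, which is bound by the MuvB core of the DREAM complex in quiescent cells and of the complexes with B-Myb and FoxM1 in dividing cells. CCAAT boxes bound by NF-Y often lie a short way upstream of it. In the embryonic kidney, dividing cells are found above all in the tips of the branching ureteric bud and in the nephron progenitors and stroma around them, so that in a whole organ the transcripts of this programme follow how many cells are cycling. In whole-organ RNA, fewer dividing cells and less RNA per dividing cell cannot be told apart.

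The shared promoter letters are shown first, since they are what the listed genes have in common beside their roles. RefSeq start sites on GRCm38.p6 were found for 36 of the 43 genes, with 38 windows reaching from 250 bases before to 50 after the start. The core hexamer TTTGAA, searched on both strands (as TTTGAA or TTCAAA), was present in 28 of the 38 windows (73.7%), against 5878 of all 32851 windows of the same length (17.9%). A match that began within 50 bases of the start was found in 65.8% of the member windows and in 4.94% of all windows. CCAAT, searched on both strands (as CCAAT or ATTGG), was present in 29 of the 38 (76.3%) against 37.4% of all windows. Both were present in 24 of the 38 windows (63.2%) against 6.95% of all windows, and the matches of the 2 motifs overlapped in 1 of the 38. A match is a description of the letters, not a binding site. The 150 bases before the start are printed 5′ to 3′ on the strand of the gene, with matches to either motif in capitals. Cdk1 (chr10:69352913-69353062, minus strand), Mki67 (chr7:135716380-135716529, minus strand), Top2a (chr11:99024190-99024339, minus strand) and Cdc20 (chr4:118437344-118437493, minus strand) stand for the classical members. Kif11 (chr19:37376232-37376381, plus strand) and Kif15 (chr9:122950931-122951080, plus strand) are a pair of spindle motors whose values on the arrays differed. Plk4 (chr3:40799801-40799950, plus strand) is shown as a member without either motif.
Cdk1: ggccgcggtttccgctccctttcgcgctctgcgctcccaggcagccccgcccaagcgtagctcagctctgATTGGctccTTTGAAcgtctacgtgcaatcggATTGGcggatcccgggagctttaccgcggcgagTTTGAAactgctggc
Mki67: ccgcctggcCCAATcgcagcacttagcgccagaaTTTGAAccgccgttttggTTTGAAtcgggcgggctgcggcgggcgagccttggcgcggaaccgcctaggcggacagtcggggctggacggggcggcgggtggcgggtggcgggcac
Top2a: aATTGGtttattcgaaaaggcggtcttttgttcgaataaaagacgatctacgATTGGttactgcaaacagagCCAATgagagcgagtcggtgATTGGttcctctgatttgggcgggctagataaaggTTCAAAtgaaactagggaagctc
Cdc20: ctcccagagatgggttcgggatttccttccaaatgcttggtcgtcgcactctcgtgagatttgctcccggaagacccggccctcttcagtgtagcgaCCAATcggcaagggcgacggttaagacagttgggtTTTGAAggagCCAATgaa
Kif11: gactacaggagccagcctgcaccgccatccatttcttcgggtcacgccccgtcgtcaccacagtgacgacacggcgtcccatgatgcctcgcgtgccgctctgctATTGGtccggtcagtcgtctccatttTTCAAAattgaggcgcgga
Kif15: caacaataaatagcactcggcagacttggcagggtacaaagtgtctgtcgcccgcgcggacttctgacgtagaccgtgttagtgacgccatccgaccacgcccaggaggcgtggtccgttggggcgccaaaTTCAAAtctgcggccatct
Plk4: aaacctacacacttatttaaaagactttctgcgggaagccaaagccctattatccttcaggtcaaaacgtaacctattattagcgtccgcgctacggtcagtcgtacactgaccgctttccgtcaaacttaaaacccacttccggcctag

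In the promoters of Top2a, Cdc20, Kif11 and Kif15 a hexamer began 23, 18, 19 and 19 bases before the start, and in that of Cdk1 the nearest began 15 bases before it. On the arrays, the 26 measured members with the hexamer had a median log2 difference of -0.074 and 18 of them were lower, and the 9 without it had a median of 0.028 with 4 lower. The split was not made over all genes or matched for level, and the contrast between the medians was not tested. It also leaves out the measured members for which no window was found. They were Foxm1 (-0.37), Tpx2 (-0.38), Aurkb (-0.41), Cdc25c (-0.16), Kif20a (-0.082), Ccna2 (0.12) and Incenp (0.053).

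The labels held for the deleted gene that differs between the groups: Fzd4 fell from a log2 signal of 10.84 ± 0.09 in the Fz8-null arrays to 4.71 ± 0.74 in the double-null arrays (SD, n = 3 each), a difference of -6.13 (SE 0.35, limma adjusted p = 0.00318). Fzd8, deleted in both groups, read 3.98 ± 0.42 and 3.69 ± 0.18 (SD, n = 3 each; limma adjusted p = 0.529). The kidney's own cell types were present in both groups. Markers of the ureteric tip were lower in 8 of 8 measured genes (median difference -0.999) and those of nephron progenitors in 9 of 9 (median -0.73), while the stromal list had a median of 0.013 and the ureteric trunk list 0.042. Within the stromal list, Foxd1 read 9.98 to 10.16 in the controls and 9.98 to 10.11 in the double-null arrays, while Lum and Dcn lay above every control on all 3 double-null arrays (differences 1.01 and 0.60). Of the 9 ureteric trunk genes 3 were lower and 6 higher. The lower ones included Wnt9b (-0.56, groups overlapping) and Gata3 (-0.38, below every control on all 3 double-null arrays). Endothelial markers were lower in 8 of 10 genes (median -0.37), most on M2. Markers of tissue outside the kidney moved as well: the mean log2 level of 8 liver genes lay between 5.56 and 6.35 in the Fz8-null arrays and between 6.65 and 9.50 in the double-null arrays, and that of 8 erythroid genes between 5.12 and 5.38 against between 5.02 and 7.56. Both were highest on M2 and M3. Skeletal muscle markers had a lower mean in 8 of 8 genes (median -0.75), most on M1, but the groups overlapped for all 8. Their mean level was 6.54, 7.98 and 6.98 on C1 to C3 and 5.68, 6.72 and 6.87 on M1 to M3. M2 and M3 thus lay within the control range. The 5′ probe set for 18S ribosomal RNA read 8.53, 7.59 and 7.84 in the controls and 9.88, 10.56 and 9.86 in the double-null arrays, all higher, and the 3′ one was also higher on all 3. The probe set for the B1 repeat, a short interspersed element that is carried in unspliced RNA, read 10.67 to 11.02 in the Fz8-null arrays and 11.83, 12.08 and 10.85 on M1, M2 and M3. The β-actin 3′ probe set exceeded the 5′ one by 0.74 to 1.00 in the Fz8-null arrays and by 1.30, 1.08 and 0.57 on M1, M2 and M3. The part of these differences in the results below was not tested. A value given without an array leaves out all that sets that array apart at once, so it cannot separate them.

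The mitosis and spindle programme as a whole lay close to the control level in the double-null kidneys. Of the 42 measured members 27 had a lower and 15 a higher mean, and none passed the limma test at an adjusted p of 0.05; over all genes 0.0275% did. Without adjustment, 1 member had a p under 0.05 in the lower direction (Tpx2) and 0 in the higher direction, against 9.23% and 6.05% of all genes. All 3 double-null arrays lay below all 3 Fz8-null arrays for 5 members (Top2a, Foxm1, Tpx2, Aurkb and Racgap1; 11.9%), and above them for 1 (Plk4; 2.38%). Over all genes these shares were 12.2% and 6.68%. Among the 9051 genes whose mean level lay in the members' own range, log2 7.09 to 12.15, they were 16.6% and 2.82%. Of those 9051 genes, 1090 had an unadjusted limma p under 0.05 as lower and 153 as higher. The members' counts thus stood near or under the background in both directions. For the 6 members whose groups did not overlap, the exact two-sided permutation test can only give p = 0.1, the smallest that 3 arrays against 3 allow. That value restates the lack of overlap and adds no evidence to it.

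The median difference of the members was -0.066, with the middle of the list, from the lower to the upper quartile, between -0.18 and 0.049. The median over all genes was -0.061. Among genes of like level, in which 71.9% were lower, the median was -0.14. Set against the median of its own 1-unit bin of mean level, the median member lay 0.055 higher. In the bin from 10 to 11, which held 14 members, the members' median was 0.027 and that of the bin's 1811 genes -0.076. The 12 members between 9 and 10 had a median of -0.14, as did all genes there. The sign of so small a median depended on the scaling: with quantile normalisation the members' median was 0.022 (20 lower, 22 higher) and the like-level median -0.044, and with equal array medians they were -0.011 (23 lower, 19 higher) and -0.088. In each of the 3 scalings the members' median was above that of the genes of like level, which was not tested.

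**Figure D1:**
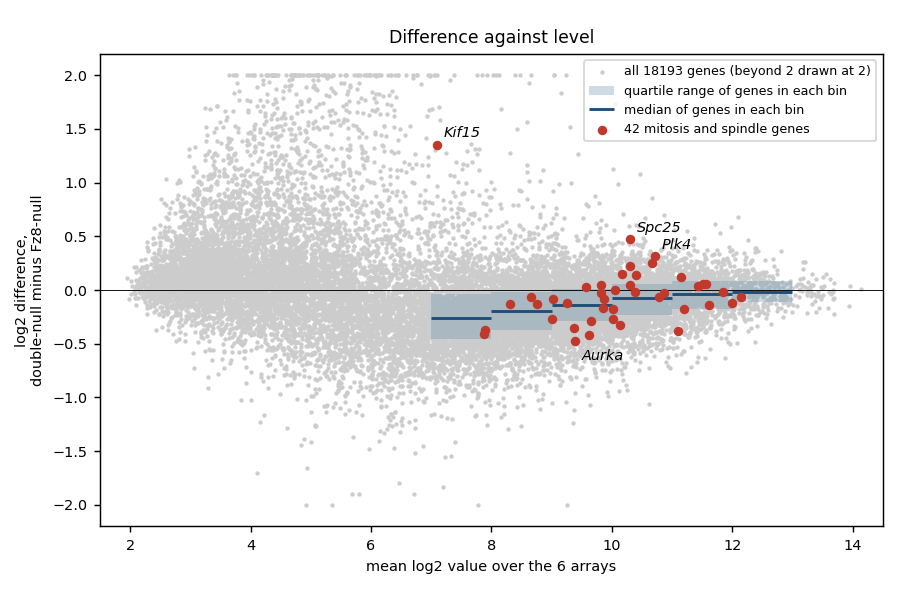
Log2 difference (double-null minus Fz8-null, vertical axis) against the mean log2 value over the 6 arrays (horizontal axis) for all 18193 genes (grey; beyond 2 drawn at 2) and the 42 mitosis and spindle genes (red); the blue line and band are the median and the quartile range of the genes in each 1-unit bin. Most red points lie within 0.5 of 0, with Kif15 at 1.35 the exception.

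The arrays bounded each difference more tightly than they called one. The 95% interval of the difference lay within 2-fold in either direction for 39 of the 42 members (92.9%; 86.0% of genes of like level). The exceptions were Aurka (-1.09 to 0.15), Spc25 (-0.13 to 1.08) and Kif15 (-0.079 to 2.79). It lay within 1.5-fold for 24 of the 42 (57.1%; 45.0% of genes of like level). A difference beyond 0.5 in size was found for 1 member, Kif15 (2.38%), against 12.1% of the genes of like level and 18.2% of all genes. The spread between arrays of a genotype was that of other genes: the members' median SD was 0.14 in the Fz8-null and 0.21 in the double-null arrays, and the medians of the genes of like level were also 0.14 and 0.21.

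The 3 double-null arrays did not carry the group in the same way. Taken as deviations from the mean of the Fz8-null arrays, the members' median was -0.060 on M1, -0.16 on M2 and 0.038 on M3, and for genes of like level it was -0.16, -0.24 and -0.025. M2 read below every Fz8-null array for 21 of the 42 members, M1 for 14 and M3 for 10. The shares of like-level genes were 59.7% for M2, 51.6% for M1 and 31.0% for M3. M3 was thus the double-null array nearest to the controls both for the members and for other genes. M2 and M3, which lay apart for these genes, were the arrays with the highest liver and erythroid signal. M1 had an erythroid mean level of 5.02, under the controls, and a liver mean level of 6.65, above the highest control at 6.35.

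**Figure D2:**
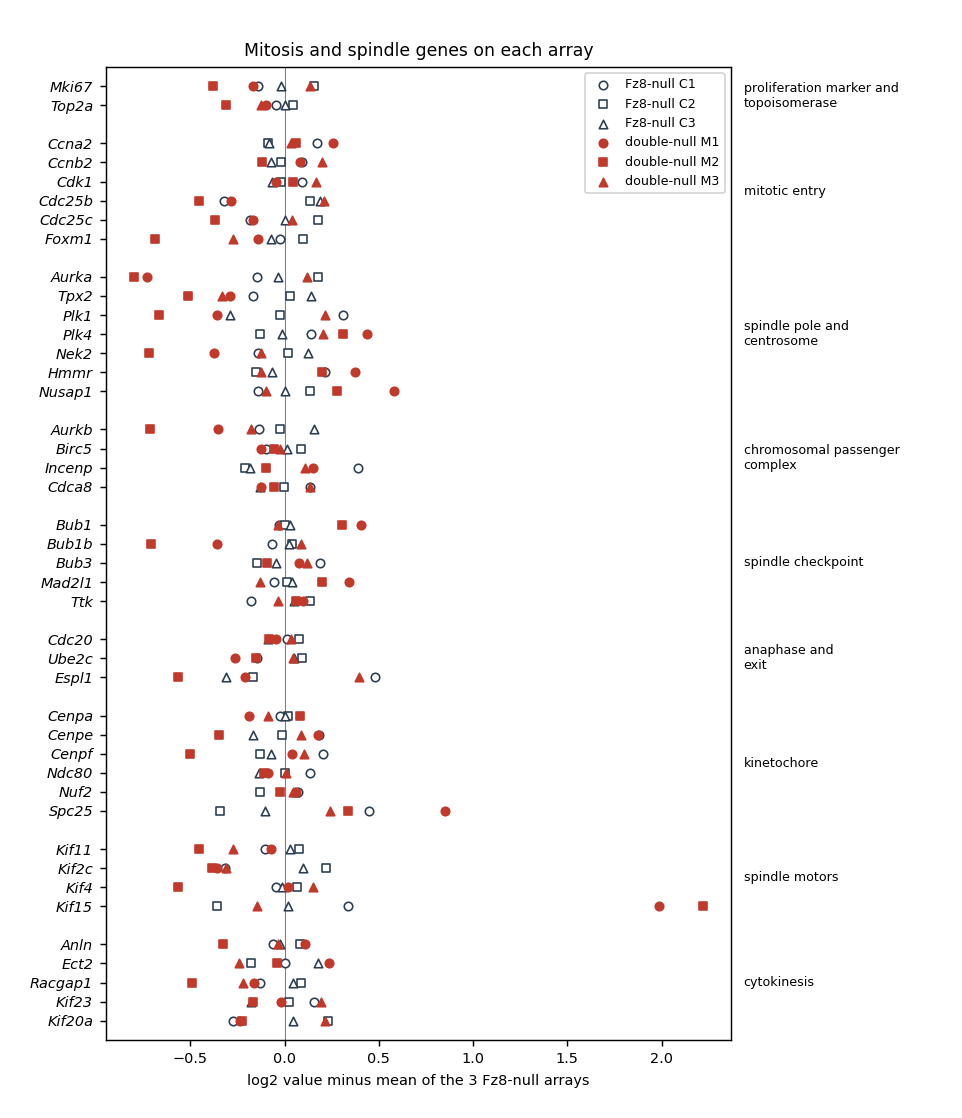
Log2 value of each measured member on each array minus the mean of the 3 Fz8-null arrays (horizontal axis), with genes grouped by role; open symbols are Fz8-null arrays C1 to C3 and filled symbols double-null arrays M1 to M3. Filled and open symbols intermix for most genes, and M1 and M2 of Kif15 stand about 2 log2 units to the right while M3 stands with the controls.

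Mki67 and Top2a, the usual markers of cycling tissue, had lower means on their representative probe sets, and neither passed the test. Mki67, the Ki-67 surface coat of mitotic chromosomes, read 11.55, 11.85 and 11.67 on C1 to C3 and 11.52, 11.31 and 11.82 on M1 to M3. The groups overlapped, with M3 as high as the controls, and the difference was -0.14 (SE 0.17, limma adjusted p = 0.687), or -0.27 without M3. Top2a, the topoisomerase that disentangles sister chromatids, read 11.23, 11.33 and 11.28 against 11.18, 10.97 and 11.16. Its groups did not overlap, and the difference was -0.18 (SE 0.12, limma adjusted p = 0.477). With the mean of all its probe sets the direction turned, to 0.29.

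The genes of mitotic entry showed no common direction, with 3 of 6 measured members lower. Cdk1, the kinase that drives cells into mitosis, read 11.57, 11.46 and 11.41 in the controls and 11.43, 11.53 and 11.65 in the double-null arrays. The ranges overlapped almost wholly and the difference was 0.055 (SE 0.13, 95% interval -0.24 to 0.36). Its cyclin partners Ccna2 and Ccnb2 differed by 0.12 and 0.051, and the activating phosphatases Cdc25b and Cdc25c by -0.18 and -0.16. Foxm1, the transcription factor that drives many late cell cycle genes, read 8.0499, 8.1692 and 7.9999 against 7.9307, 7.3868 and 7.7973. All 3 double-null arrays were lower, M2 most of all, and the difference of -0.37 (SE 0.17) did not pass (limma adjusted p = 0.341).

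Among the genes of the spindle pole and centrosome the differences pointed both ways, with 4 lower and 3 higher. Tpx2, which activates Aurora A on spindle microtubules, read 11.1209, 11.3210 and 11.4303 in the controls and 11.0004, 10.7797 and 10.9607 in the double-null arrays. These groups did not overlap, and the difference of -0.38 (SE 0.14) had the smallest p of all members but did not pass (limma adjusted p = 0.317). Averaged over all its probe sets, dim ones included, Tpx2 differed by 0.010. Aurka, the Aurora A kinase itself, had the most negative difference, -0.47 (SE 0.26, limma adjusted p = 0.389). It read 9.47, 9.80 and 9.59 in the controls and 8.89, 8.82 and 9.74 on M1, M2 and M3, so that the lower mean came from M1 and M2 while M3 lay within the controls. The β-actin 3′ excess was also highest on M1 and M2 (1.30 and 1.08), and its part was not tested. Nek2, a kinase that parts the centrosomes, and Plk1, the polo kinase of mitotic entry and pole maturation, differed by -0.41 and -0.27, and without M3 Plk1 differed by -0.51. Plk4, which starts centriole duplication, was the 1 member with every double-null array above every control on its representative probe set. It read 10.99, 10.86 and 10.76 against 10.69, 10.42 and 10.54 (difference 0.32, SE 0.14, limma adjusted p = 0.328). Its other probe sets differed by 0.070 and 0.0082, and their groups overlapped. The microtubule-binding proteins Hmmr and Nusap1 differed by 0.15 and 0.25. Values of single arrays for Aurka and Plk4 were chosen for print after they were seen.

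The chromosomal passenger complex places Aurora B at centromeres and later at the midzone. On their representative probe sets, 3 of its 4 members differed by less than 0.1. Aurkb, its kinase, was the exception: it read 9.69, 9.80 and 9.98 against 9.47, 9.11 and 9.65. M3 lay just under the lowest control, so the groups did not overlap, and the difference was -0.41 (SE 0.18, limma adjusted p = 0.328). Birc5, or survivin, read 12.08, 12.27 and 12.19 against 12.06, 12.12 and 12.16. These overlapped, with a difference of -0.068 (SE 0.12). The scaffold Incenp and the third targeting subunit, Cdca8, which encodes borealin, differed by 0.053 and -0.017. Their other probe sets with a mean of at least 6 were lower, at -0.21 and -0.69 for Incenp and -0.21 and -0.54 for Cdca8.

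Spindle checkpoint genes, which delay anaphase until every chromosome is attached, were higher in 4 of 5 cases on their representative probe sets, with none past the test. With the mean of all probe sets Bub1 and Ttk turned to -0.042 and -0.13, and without M3 Bub3 turned to -0.0095. Bub1b, which encodes the checkpoint protein BubR1, was the lower one and had the smallest p of the role. It read 10.23, 10.34 and 10.32 in the controls and 9.93, 9.59 and 10.38 on M1, M2 and M3. M1 and M2 were low and M3 was above all controls, which left a difference of -0.33 (SE 0.21, limma adjusted p = 0.440). Bub3, its partner, read 11.61, 11.28 and 11.37 against 11.50, 11.32 and 11.54, and these values overlapped fully (difference 0.034, SE 0.14). The kinetochore kinase Bub1, the Cdc20 inhibitor Mad2l1 and the upstream kinase Ttk differed by 0.22, 0.14 and 0.042.

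On their representative probe sets, the genes of anaphase and mitotic exit were lower in 3 of 3 cases by small amounts. With quantile normalisation Cdc20 and Espl1 were above 0 (0.023 and 0.022). Ube2c, the ubiquitin-conjugating enzyme that works with the anaphase-promoting complex, read 11.91, 12.15 and 12.11 in the controls and 11.79, 11.91 and 12.10 in the double-null arrays. The ranges overlapped and the difference was -0.12 (SE 0.14, limma adjusted p = 0.661). Cdc20, the activator of that complex, differed by -0.031, and Espl1, the protease separase that cuts cohesin, by -0.13. The other probe sets of Cdc20 differed by -0.39 and -0.20, with groups that overlapped.

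Kinetochore genes form the bridge between centromere and microtubule, and 5 of the 6 differed by 0.12 or less in size on their representative probe sets. Spc25, a subunit of the Ndc80 complex, was the exception at 0.48 (SE 0.25, limma adjusted p = 0.375). It read 10.51, 9.72 and 9.96 in the controls and 10.91, 10.40 and 10.31 in the double-null arrays, so that C1 lay above M2 and M3. Its partners in that complex, Ndc80 and Nuf2, differed by -0.063 and 0.028. Cenpa, the histone variant that marks centromeres, read 10.80, 10.84 and 10.82 against 10.63, 10.90 and 10.73. The controls agreed closely and M2 exceeded them (difference -0.065, SE 0.13). The kinetochore motor Cenpe and the large kinetochore protein Cenpf differed by -0.027 and -0.12.

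The spindle motors held the member with the largest difference. Kif15, a plus-end kinesin that can back up Kif11 in holding the spindle poles apart, read 6.75, 6.06 and 6.43 in the controls and 8.40, 8.63 and 6.27 on M1, M2 and M3. M1 and M2 stood far above the controls and M3 stood among them. The mean difference was 1.35 (SE 0.60), and with an SD of 1.30 between the double-null arrays it did not pass (limma adjusted p = 0.333). The B1 repeat probe set was high on the same 2 arrays, at 11.83 and 12.08, and read 10.85 on M3, within the control range; its part in the Kif15 values was not tested. Kif15 has a single probe set of its own, so that no second reading bears on it. Kif11, the motor that pushes the poles apart, read 10.05, 10.23 and 10.18 against 10.08, 9.70 and 9.88 and overlapped between groups (difference -0.27, SE 0.15, limma adjusted p = 0.384). The microtubule-depolymerising kinesin Kif2c and the chromosome-arm kinesin Kif4 differed by -0.35 and -0.13.

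Cytokinesis genes lay within 0.1 of the controls on their representative probe sets, apart from Racgap1. Racgap1, the GTPase-activating subunit of centralspindlin, read 9.67, 9.88 and 9.84 against 9.63, 9.30 and 9.57. The highest double-null array, M1, lay just under the lowest control, C1, and the difference was -0.29 (SE 0.14, limma adjusted p = 0.355). Ect2, the exchange factor that Racgap1 recruits to the cell equator, read 10.40, 10.22 and 10.57 against 10.64, 10.36 and 10.16, with full overlap (difference -0.015, SE 0.17). The other centralspindlin subunit, Kif23, differed by 0.0026, the midzone kinesin Kif20a by -0.082 and the contractile ring scaffold Anln by -0.083.

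**Figure D3:**
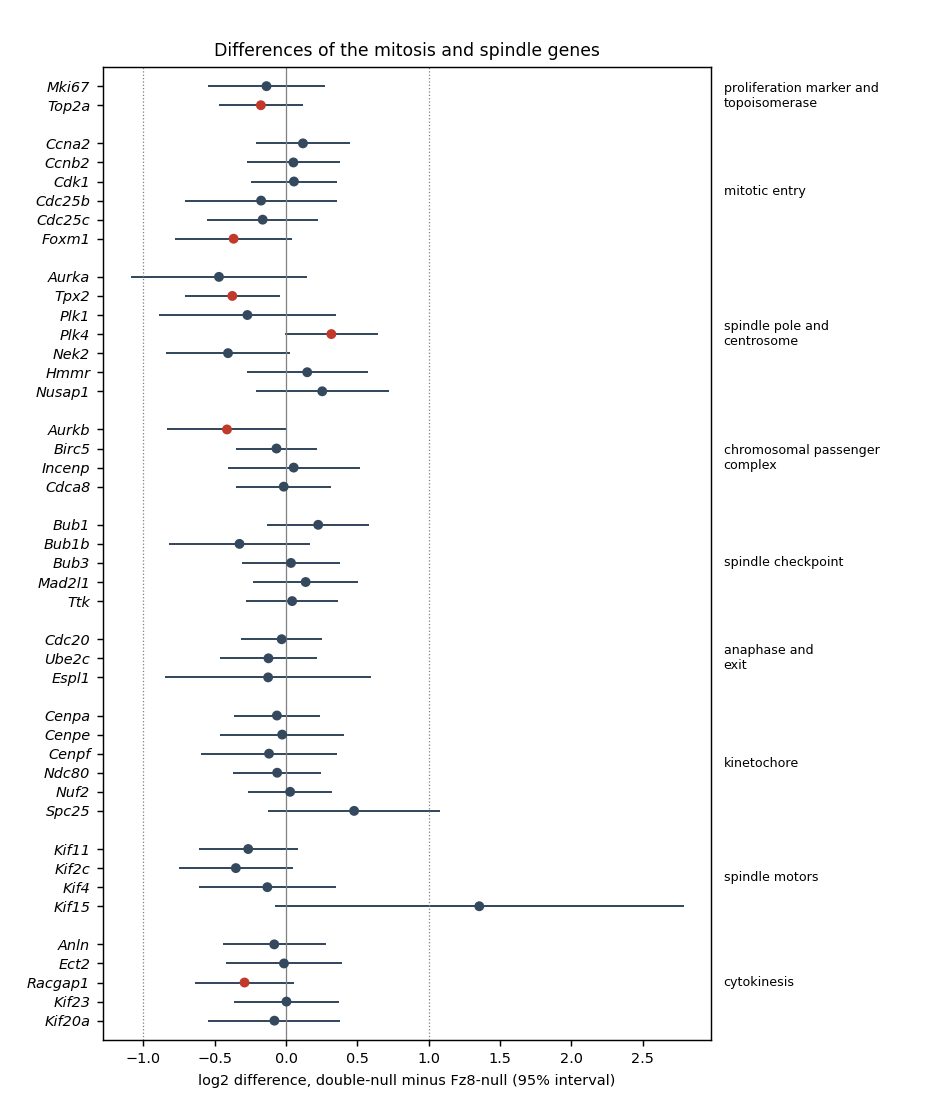
Log2 difference (double-null minus Fz8-null) of each member with its 95% interval from limma, grouped by role; red points are members whose groups do not overlap, and dotted lines mark 2-fold in either direction. The intervals of all members but Tpx2 include 0, and those of Aurka, Spc25 and Kif15 reach beyond 2-fold.

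Other probe sets of the same genes gave a second reading and were less uniform. In all, 96 probe sets were annotated to the 42 members alone. Of the 39 that did not represent a gene and had a mean of at least 6, 26 had the sign of the representative, 27 were lower, and their median difference was -0.21. None of the 96 passed the test when p-values were adjusted over all probe sets. A difference beyond 0.5 in size was found for 9 of the 39 against 1 of the 42 representatives and 18.2% of all genes. Each of the 39 is dimmer than its gene's representative, which was chosen as the brightest. The median of all genes was -0.26 between log2 7 and 8, -0.14 between 9 and 10, and -0.036 between 11 and 12. Probe sets of like level were not counted, so these values cannot be told apart from an effect of level. Among the 25 members with several probe sets at that level, all were lower for 12 genes (Anln, Aurkb, Cdc20, Cdc25c, Cdca8, Cenpe, Cenpf, Foxm1, Kif2c, Nek2, Racgap1 and Tpx2), all were higher for Ccna2 and Plk4, and 11 genes were mixed; with quantile normalisation the representatives of Anln, Cdc20 and Cenpe were above 0. The second Aurkb probe set differed by -0.62, and the other Foxm1 probe sets at that level by -0.45 and -0.66. Those of Plk4 beside its representative were higher by only 0.070 and 0.0082.

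The widest disagreements, singled out after their values were seen, lay mostly on M1 and M2. A second probe set of Top2a differed by 0.99 where the representative differed by -0.18, and it read 7.52, 6.90 and 6.76 in the controls and 8.36, 8.44 and 7.35 on M1 to M3. M1 and M2 were again the high arrays, as for Kif15. A second Kif11 probe set differed by 0.84 where the representative differed by -0.27, with 7.37, 7.16 and 7.21 against 7.95, 8.67 and 7.63. In the other direction, the second Cenpf probe set differed by -1.41, at 6.77, 7.51 and 7.45 against 5.26, 5.31 and 6.93. M1 and M2 were low there and M3 lay within the controls. The second probe set of Cenpe (-0.77) was also lowest on M1 and M2. So was the lowest-differing one of Incenp among those with a mean of at least 6 (-0.69). The B1 repeat signal and the 3′ excess of β-actin were highest on the same pair of arrays, and their part in these readings was not tested.

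**Figure D4:**
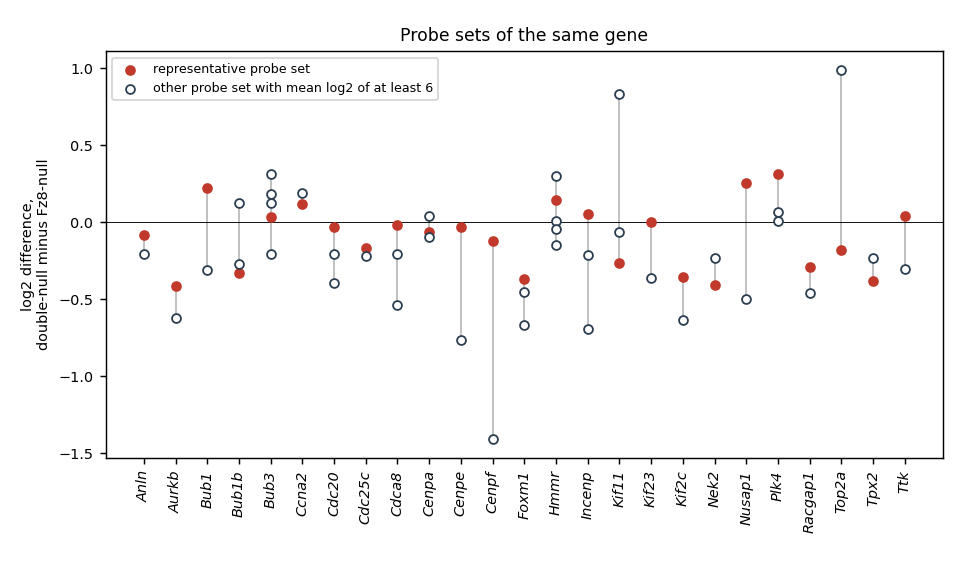
Log2 difference (double-null minus Fz8-null, vertical axis) of the representative probe set (red) and of each other probe set with a mean log2 of at least 6 (open) for the 25 members that have several. Top2a and Kif11 have a second probe set at 0.99 and 0.84 while Cenpf has one at -1.41, far from their representatives.

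Leaving M3 out of the fit changed the count of calls more than any other array did. Without it 2 members passed, Kif15 in the higher direction (difference 2.10, SE 0.22, limma adjusted p = 0.00505) and Aurka in the lower (-0.76, SE 0.15, limma adjusted p = 0.0201). With M3 removed 10.7% of all genes passed as lower and 7.4% as higher, and 13.2% and 1.46% of the genes of like level, so that 1 of 42 members in either direction (2.38%) has to be read against those shares. Differences that did not pass also grew by over 1.5 times without M3, among them Bub1b (-0.53), Cdc25b (-0.37), Espl1 (-0.39), Mad2l1 (0.27) and Nusap1 (0.43). No member passed when any of the other 5 arrays was left out. With arrays weighted by their agreement with the fit, which gave M3 the least weight at 0.21 and M1 the most at 3.93, 16 members passed, 8 in each direction, against 41.6% of all genes and 40.6% of those of like level. The 8 higher were Ccna2, Plk4, Hmmr, Nusap1, Bub1, Mad2l1, Spc25 and Kif15, and the 8 lower were Cdc25b, Aurka, Tpx2, Nek2, Aurkb, Bub1b, Ube2c and Kif2c.

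The rest of the cell cycle machinery was read from 9 further lists with 191 measured genes of 195, and none of the 191 passed the test in either direction. Without adjustment, 14 (of 191) had a limma p under 0.05 as lower and 2 as higher, against 9.23% and 6.05% of all genes. Of the 9051 genes of like level, 1090 were lower and 153 higher by that measure. The median over all of them was -0.098, and the groups did not overlap for 27 lower (14.1%) and 6 higher genes (3.14%), again near the like-level shares. Some lists had medians near 0, at 0.043 for 17 condensin and cohesin genes, -0.0015 for 15 genes of the anaphase-promoting complex and -0.012 for 33 further kinetochore and centromere genes. The last 2 medians turned to 0.078 and 0.098 with quantile normalisation. In these lists, the genes of smallest p were Ncapd3 (-0.29) and Stag2 (0.24), Cdc23 (-0.27) and Anapc13 (0.23), and Knl1 (0.44) and Cenpt (-0.44). The 33 DNA replication genes had a median of -0.091 (0.012 with quantile normalisation), with Pola1 (-0.32) and Cdc6 (-0.43) of smallest p, and the 13 cell cycle brakes had one of 0.024, with Cdkn2c at 0.39 and Cdkn1a at -0.43.

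Medians below that of the genes of like level were found for 3 lists. All 3 stayed below 0 in both other scalings, but so did the median of the genes of like level. It was -0.044 with quantile normalisation and -0.088 with equal array medians. Like level here is the members' own range, and some genes of these lists lay outside it. Of the genes of like level 71.9% were lower, with a median of -0.14. Further spindle, centrosome and cytokinesis genes were lower in 26 of 32 cases, with a median of -0.22, and the groups did not overlap for 7 lower genes (21.9%, against 16.6% of the genes of like level and 12.2% of all genes). Prc1, which bundles the midzone microtubules, had the smallest p there: it read 11.03, 11.38 and 11.34 in the controls and 10.73, 10.52 and 10.64 in the double-null arrays, all lower (difference -0.62, SE 0.15, limma adjusted p = 0.314). Pcnt, the centrosome scaffold pericentrin, differed by -0.55. The G1 cyclins, kinases and Myc genes were lower in 11 of 11 cases with a median of -0.26. Set against its own level bin, the median gene differed by -0.13 here and by -0.064 in the spindle, centrosome and cytokinesis list. Mycn, which keeps nephron progenitors and other embryonic cells cycling, read 11.38, 11.42 and 11.43 against 11.06, 11.03 and 11.07 (difference -0.36, SE 0.11, limma adjusted p = 0.314), and the G1 cyclin Ccnd2 differed by -0.33. Other mitotic regulators lay near the like-level shares: 14 of 18 were lower (77.8%) with a median of -0.15. Their groups did not overlap for 3 lower genes (16.7%, against 16.6% of the genes of like level). Set against the median of its own level bin, the list's median gene differed by only -0.023. Cdc25a and Lmnb1 each differed by -0.64. The regulators of the programme itself, the 19 DREAM, MuvB and E2F genes, had a median of -0.11 with 16 lower (84.2%). Against its own level bin, their median gene differed by only -0.010. Of the 19, E2f7 (-0.62) and Lin54 (-0.41) had the smallest p. Beside these values stand the lower ureteric tip and nephron progenitor markers given above; their part was not tested.

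**Figure D5:**
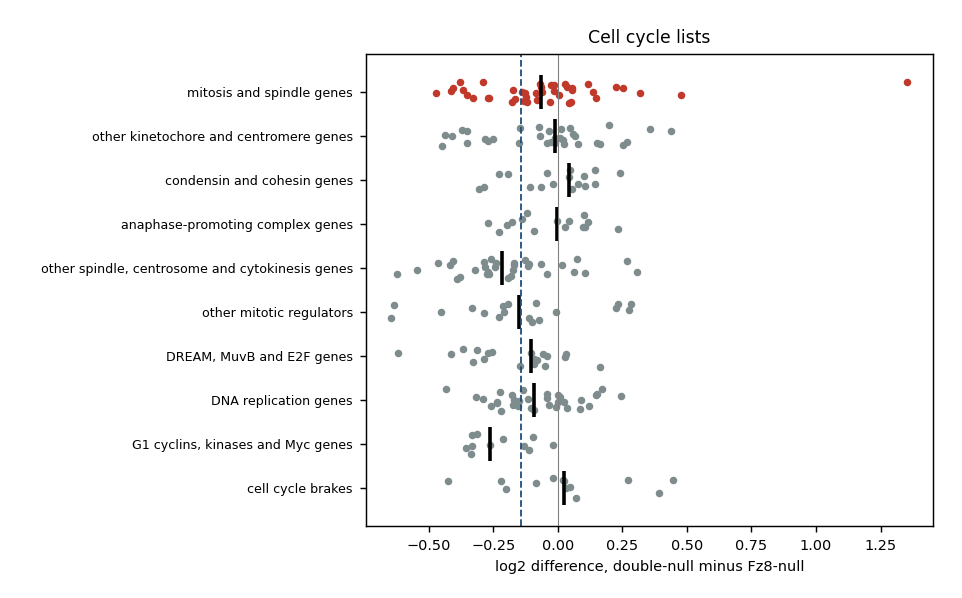
Log2 difference (double-null minus Fz8-null, horizontal axis) of each measured gene in the mitosis and spindle list (red) and in 9 further cell cycle lists (grey); black bars are list medians and the dashed line is the median of the 9051 genes of like level, -0.14. The mitosis and spindle median of -0.066 lies between that line and 0, and the G1 and Myc list lies wholly below 0.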

How the data were processed

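Whole kidneys of 6 samples were profiled, 3 per genotype. The deposited table holds log2 values summarised by the authors with RMA, per the submitters' processing notes; array normalisation steps beyond that name, and scanner files, were not used here. Of 45101 probe sets, 64 Affymetrix controls were left out. Probe sets were named from GEO's platform annotation: of the 45037 others, 34945 had 1 gene, 932 several and 9160 none. Differences were fitted with limma 3.58.1 in R 4.3.3 (lmFit and eBayes, no covariate) over 18193 genes, 1 probe set each, with Benjamini-Hochberg adjustment and a threshold of 0.05. RMA background correction can compress low signals, so differences of dim probe sets may be understated, which was not tested here. The number of arrays limits the precision. The script was tested on simulated data. All members are named with their difference. Values of single arrays are given for the member with the smallest p and the one with the highest mean in each role, and for Mki67, Top2a and Cdk1. Each other list is shown by its 2 genes of smallest p. Members and lists were chosen with earlier results of these data known. The alternatives were a minimum level, quantile normalisation, equal array medians, trended robust moderation, array weights, the replicate number as a block, the mean of all probe sets, a threshold of 0.1, and each array left out.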

Additional observations from a re-analysis of the deposited data

How the results depend on the processing

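Calls depended on which arrays counted. Genes past the threshold, 5 of all genes, numbered 7576 with array weights, 3 with the replicate block, 1 with the mean of all probe sets, 11 at an adjusted p of 0.1, and 2 to 3292 with 1 array left out. Members past it, 0, numbered 16 with array weights and 0 to 2 with 1 array left out; the other pathway genes, 0, numbered 62 and 0 to 19. The highest counts came without M3. Members wholly lower, 5, numbered 3 with equal array medians, 3 with the mean of all probe sets and 5 to 12 with 1 array left out; wholly higher, 1, numbered 1 to 5. These 2 counts use no fit, so moderation, weights and block do not apply to them. The members' median ranged from -0.096 to 0.0016 with 1 array left out. Same-numbered arrays did not deviate together (r of 0.17, -0.14 and 0.090), so the numbers show no pairing; the block changed no member's call.

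A sign change was seen for 22 of the 42 members; the cause was not tested. With quantile normalisation Cdc20 was 0.023, Espl1 0.022, Cenpe 0.080, Ndc80 0.064, Anln 0.029, Ect2 0.057 and Kif20a 0.024. With equal array medians Cdca8 was 0.039, Cdc20 0.024, Cenpe 0.028 and Ect2 0.040. With array weights Cdk1 was -0.00039, Cenpe 0.17, Cenpf 0.064, Anln 0.026 and Ect2 0.22. With the mean of all probe sets Top2a was 0.29, Tpx2 0.010, Nusap1 -0.12, Incenp -0.26, Bub1 -0.042, Ttk -0.13, Kif11 0.17 and Kif23 -0.16. With 1 array left out the ranges were -0.021 to 0.14 for Ccnb2, -0.00042 to 0.11 for Cdk1, -0.051 to 0.25 for Incenp, -0.093 to 0.052 for Cdca8, -0.038 to 0.13 for Bub3, -0.048 to 0.11 for Ttk, -0.076 to 0.0075 for Cdc20, -0.39 to 0.11 for Espl1, -0.13 to 0.13 for Cenpe, -0.23 to 0.071 for Cenpf, -0.13 to 0.0036 for Ndc80, -0.036 to 0.064 for Nuf2, -0.27 to 0.085 for Kif4, -0.18 to 0.039 for Anln, -0.14 to 0.10 for Ect2, -0.093 to 0.089 for Kif23 and -0.23 to 0.033 for Kif20a.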
